A study of Homo sapiens with 4 samples.

Results

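The urea cycle genes examined here are 10 members of 20033 protein-coding genes annotated on the primary chromosomes. CPS1, OTC, ASS1, ASL and ARG1 encode the cycle's enzymes, NAGS makes the activator that CPS1 needs, SLC25A13 and SLC25A15 carry aspartate and ornithine across the inner mitochondrial membrane, ARG2 is the mitochondrial arginase, and GLS2 is the liver-type glutaminase. They were taken by name, and every accessible region overlapping a gene body or the 10 kb on either side (GENCODE release 44, hg38) was collected. To examine how these loci looked before and after EZH2 inhibition, chromatin accessibility had been measured by Omni-ATAC-seq, in which a transposase cuts and tags open DNA. The 4 libraries came from wild-type HepG2 cells, a human liver cancer line, at 50000 cells each: 2 untreated controls, and 2 from cells given 5 µM tazemetostat, an inhibitor of the histone methyltransferase EZH2, for 48 h. The drug was dissolved in DMSO, and the controls are labeled untreated. Nothing in the labels says that replicates were separate cultures, so p-values measure the spread between these libraries, which may be technical.

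The urea cycle turns ammonia into urea in hepatocytes. CPS1 and OTC work in the mitochondrion, where ammonia, taken in part from glutamine, is joined to ornithine as citrulline. ASS1, ASL and ARG1 complete the cycle in the cytosol, where aspartate supplies the remaining nitrogen and arginase releases urea. In liver, transcription of these genes depends on hepatocyte factors such as HNF4A and C/EBP. EZH2 is the catalytic subunit of polycomb repressive complex 2, which methylates histone H3 at silenced genes.

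Each library was deposited as a list of peaks, and a place without a peak has no value in that library. Values are normalized tag counts, the tags in a peak per 10 M mapped tags. Control libraries held 17.2 and 23.8 M mapped tags, and the treated libraries 19.8 and 26.6 M. Peaks numbered 26133 and 34768 for the controls, and 55313 and 54157 after treatment. To be listed, a peak had to exceed the surrounding 10 kb by 4-fold. Candidate peaks lost to this local filter came to 77.0% and 80.0% in control libraries and 62.7% and 70.9% in treated ones, and the fragment length set in peak calling was 200 bp for both controls and 144 bp for both tazemetostat libraries. Their part in any difference below cannot be told apart from the treatment. Promoters, defined as 1 kb upstream to 100 bp downstream of the canonical start, had a peak in all 4 libraries at 8 of 12 hepatocyte markers, among them APOA1, TTR, SERPINA1 and HNF4A. ALB, AFP and FGB had no promoter peak in any library and FOXA2 had it in tazemetostat replicate 2 alone, so a promoter without a listed peak was not thereby shown to be closed. Of 12 markers of other cell types, CD68 had a promoter peak in all 4 libraries, COL1A2, MYOD1, NEUROD1 and PDX1 in 1 or 2 tazemetostat libraries, and 7 (PTPRC, CD3E, PECAM1, CDH5, COL1A1, KRT5 and SOX10) in none.

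The members fell into those with an accessible promoter and those without a listed promoter peak. ASL, SLC25A13 and GLS2 had a promoter peak in all 4 libraries, which is 3 of 10 members against 30.5% of coding genes. ARG2 and SLC25A15 had it in 3 libraries. CPS1, OTC, ASS1, ARG1 and NAGS had none in any library at the canonical start, 5 of 10 members against 44.2% of coding genes. With any annotated protein-coding start counted, CPS1 also had a promoter peak in all 4 libraries, in a region shared with the promoter of LANCL1. That made 4 members with a promoter peak in all 4 libraries, and no share of coding genes was taken for this count. Base composition partly followed this division. The following 4 stretches of reference sequence show it, with the arginase pair ARG1 and ARG2, OTC as another promoter without a peak and ASL as an accessible one. Each runs 5′ to 3′ along the gene, from 250 bases before to 50 after the start (RefSeq, GRCh38.p14, plus strand). Capitals mark, on either strand, letters matching the TATA box, searched as TATAAA without regard to position. They also mark the SP/KLF box, searched as GGGCGG. The cAMP response element is marked as well, searched as TGACGTCA.
ARG1, chr6:131572976-131573275: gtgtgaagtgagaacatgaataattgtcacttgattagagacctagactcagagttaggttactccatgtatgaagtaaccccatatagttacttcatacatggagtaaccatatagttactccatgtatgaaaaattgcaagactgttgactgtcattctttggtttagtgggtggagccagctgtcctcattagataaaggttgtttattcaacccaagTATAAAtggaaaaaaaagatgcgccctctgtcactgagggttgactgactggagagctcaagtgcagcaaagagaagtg
OTC, chrX:38352354-38352653: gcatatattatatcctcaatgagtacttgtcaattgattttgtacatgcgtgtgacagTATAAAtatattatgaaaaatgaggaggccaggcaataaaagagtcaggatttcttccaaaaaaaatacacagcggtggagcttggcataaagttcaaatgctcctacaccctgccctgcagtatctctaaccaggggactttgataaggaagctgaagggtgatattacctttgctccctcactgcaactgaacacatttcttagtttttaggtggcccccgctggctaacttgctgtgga
ARG2, chr14:67619670-67619969: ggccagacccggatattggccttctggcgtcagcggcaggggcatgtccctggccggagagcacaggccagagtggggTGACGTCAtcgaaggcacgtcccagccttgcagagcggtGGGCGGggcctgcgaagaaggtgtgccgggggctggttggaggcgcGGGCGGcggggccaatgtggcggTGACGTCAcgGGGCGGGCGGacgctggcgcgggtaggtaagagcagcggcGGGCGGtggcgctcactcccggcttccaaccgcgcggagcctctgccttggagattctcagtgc
ASL, chr7:66075569-66075868: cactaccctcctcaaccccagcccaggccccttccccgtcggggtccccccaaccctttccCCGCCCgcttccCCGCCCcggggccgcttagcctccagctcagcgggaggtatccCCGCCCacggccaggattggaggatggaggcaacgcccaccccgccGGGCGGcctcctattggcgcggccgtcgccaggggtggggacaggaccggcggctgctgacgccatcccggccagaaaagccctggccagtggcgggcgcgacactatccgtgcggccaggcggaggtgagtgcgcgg

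CpG dinucleotides were scarce at CPS1, ARG1 and OTC. The ratio of observed to expected CpG in the 300 bases around the canonical start was 0.07 at CPS1, 0.09 at ARG1 and 0.23 at OTC, with a GC content of 43.7, 40.0 and 41.7%. It was 0.86 at ARG2, 0.95 at SLC25A15, 0.74 at ASL, 0.66 at SLC25A13 and 0.48 at GLS2. ASS1 and NAGS had no promoter peak yet were CpG-richer, at 0.63 and 0.50 with a GC content of 78.3 and 64.3%. Over 20032 coding promoters the median ratio was 0.78. Of the 3053 promoters with a ratio under 0.25, 4.13% had a peak in all 4 libraries and 85.9% in none, against 42.7% and 25.3% of the 10875 with a ratio of 0.75 and over. The ARG1 and OTC promoters each held a TATAAA, with its first base at -29 from the start of ARG1 and at -192 from that of OTC. TATAAA occurred in 2 of the 10 member promoters and 9.71% of coding promoters, GGGCGG in 7 and 61.3%, and TGACGTCA in 1 and 2.69%. That 1 was ARG2, with sites at -172 and -64 from the start. Matches to HNF4 (CAAAGTNCA), C/EBP (TTGCNNAA), FOXA (TGTTTAC) and HNF1 were found in none of the 10 windows, and in 0.874, 8.11, 2.42 and 0.270% of coding promoters. RefSeq lists CPS1 starts other than the canonical one used here.

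**Figure D1:**
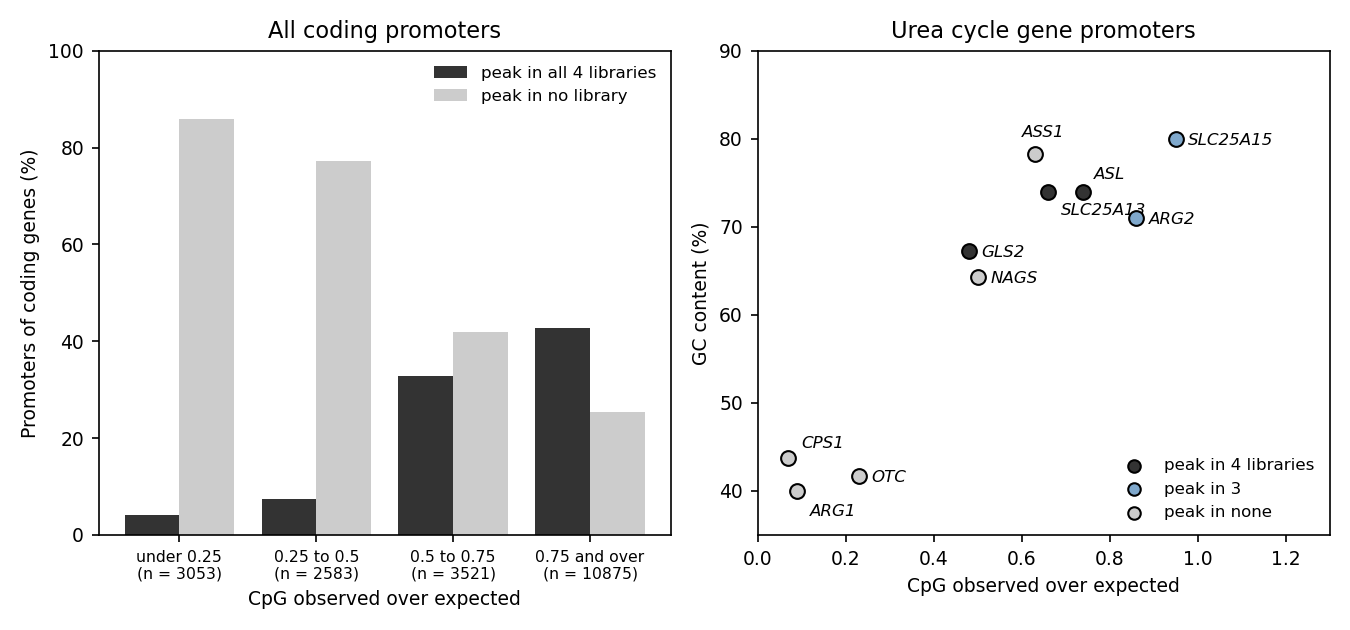
Left, percentage of coding gene promoters with a peak in all 4 libraries (dark bars) or in no library (gray bars), by the observed over expected CpG ratio of the 300 bases around the canonical start. Right, the same ratio (x axis) and GC content (y axis, %) for the 10 members, shaded by the number of libraries with a promoter peak: CPS1, ARG1 and OTC sit at 0.07 to 0.23, and ASS1 and NAGS sit among the promoters that had peaks.

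Across the member windows there were 42 regions, made by joining peaks that overlapped by at least 1 bp. Of these, 18 were called in all 4 libraries (shared regions), 7 in both tazemetostat libraries and no control (tazemetostat-only regions), 0 in both controls alone, and 17 in other combinations. A shared region lay in the window of 8 of 10 members, against 52.5% of coding genes. A tazemetostat-only region lay in 4, against 32.5%. For control-only regions it was 0 members, against 1.35%. NAGS was the 1 member with no peak in either control, which held for 25.7% of coding genes. Median window length was 64.1 kb for the members and 47.5 kb for coding genes. Per Mb of window, the members had 19.2 shared and 7.47 tazemetostat-only regions, and coding genes 8.36 and 4.68.

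**Figure D2:**
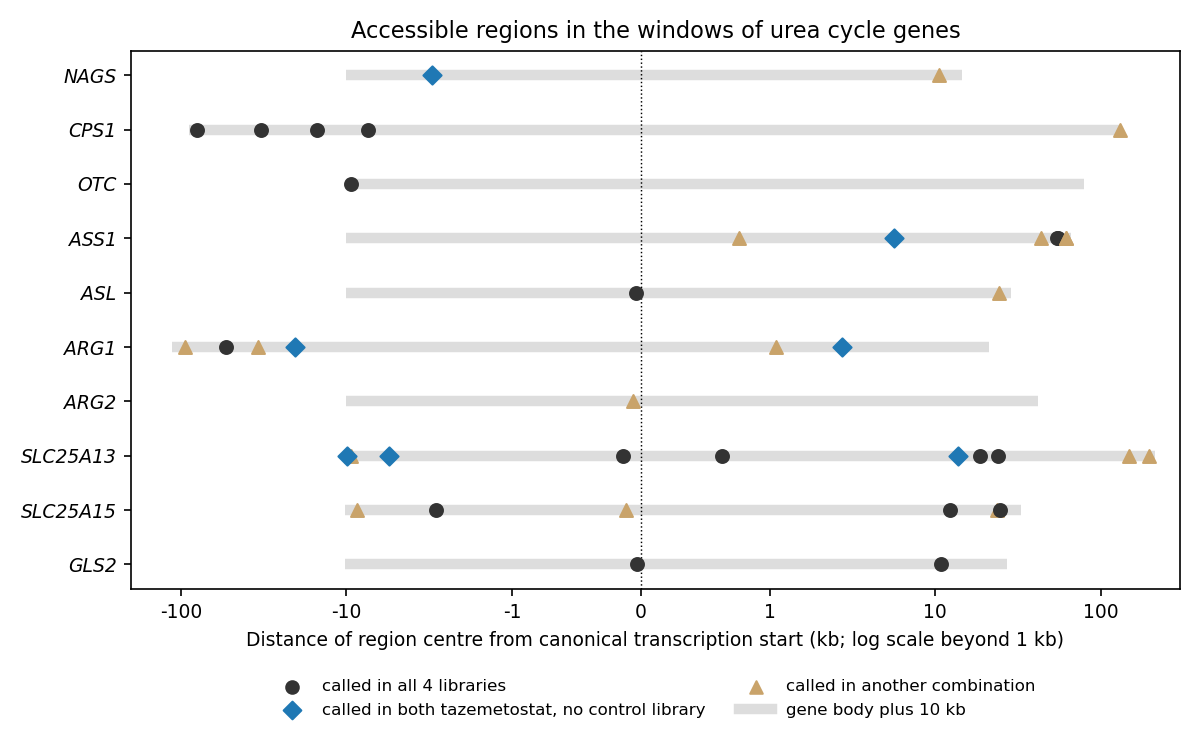
Distance of each region's center from the canonical transcription start (x axis, kb, logarithmic beyond 1 kb) for the 10 members, with gray bars for the gene body plus 10 kb. Circles are the 18 shared regions, diamonds the 7 tazemetostat-only regions and triangles the other 17. CPS1 and OTC have shared regions upstream and none at the start, whereas ASL, GLS2 and SLC25A13 have them at the start.

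Of the mitochondrial enzymes, CPS1 (chromosome 2, 210477682 to 210679107, plus strand) fixes ammonia as carbamoyl phosphate. Its canonical start at 210556599 had no promoter peak, but 4 shared regions lay upstream. The nearest, in an intron of a longer CPS1 transcript at -7.43 kb, had normalized tag counts of 11.1 and 13.9 in the controls and 26.7 and 25.6 under tazemetostat. The next, at -15.07 kb (210541195 to 210541855), had 15.1 and 20.2 against 37.8 and 24.1. At -32.68 kb (210523720 to 210524122) the values were 10.5 and 10.9 against 21.2 and 19.6. At these 3 intronic regions both tazemetostat libraries lay above both controls, as in 81.6% of the 15383 regions with 1 peak in every library. The region at -79.94 kb (210476287 to 210477033) had 20.9 and 21.4 against 42.3 and 34.6. It overlapped the 1 kb before an upstream CPS1 start and the promoter of the neighboring gene LANCL1, and cannot be assigned to either. It ended short of the first base of CPS1 at 210477682. Intronic CPS1 regions stood far above their surroundings. Their fold over the surrounding 10 kb ran from 7.31 to 45.81, the latter in tazemetostat replicate 1 at -7.43 kb.

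OTC (chromosome X, 38352586 to 38421446, plus strand) condenses carbamoyl phosphate with ornithine to citrulline. A single region lay in its window, shared, at -9.35 kb (38342775 to 38343727), inside an intron of a longer overlapping gene model. Control libraries had tag counts of 18.0 and 21.0 there, and treated libraries 44.3 and 41.8, with no overlap between groups. The peaks there measured 493 and 675 bp in the controls and 878 and 834 bp under tazemetostat, and the local folds were 9.84, 9.54, 5.39 and 6.08. The central 300 bases of this region are shown because it was the only accessible region in the OTC window. They run along the plus strand of hg38, with capitals for an HNF4 match.
OTC -9.35 kb, chrX:38343102-38343401: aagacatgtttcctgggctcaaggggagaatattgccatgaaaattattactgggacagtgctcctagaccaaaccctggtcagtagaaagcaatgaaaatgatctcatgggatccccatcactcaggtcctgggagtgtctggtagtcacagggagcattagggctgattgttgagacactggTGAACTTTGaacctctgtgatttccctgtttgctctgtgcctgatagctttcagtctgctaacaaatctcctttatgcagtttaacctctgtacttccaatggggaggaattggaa

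A C/EBP match was found in the central 300 bases of 13 of the 42 member regions. Over 78209 regions on the primary chromosomes it was found in 10496 (13.4%). HNF4 matches were found in 4 of the 42, at OTC, ASS1, SLC25A13 and SLC25A15, against 3273 of the 78209 (4.18%). FOXA matches were found in 6 of the 42, against 6443 (8.24%), and HNF1 in 1 of the 42, against 771 (0.986%). These are matches of letters, and binding was not measured here.

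NAGS (chromosome 17, 44004622 to 44009068, plus strand) makes N-acetylglutamate, without which CPS1 is inactive. Neither control library had a peak in its window. A tazemetostat-only region at -3.02 kb (44001319 to 44001879), in an intron of PYY, had normalized tag counts of 44.8 and 27.9, about 89 and 74 tags. Its local folds of 5.13 and 4.55 were close to the 4-fold required. The other region, with 15.1 in tazemetostat replicate 2 alone, lay at the promoter of TMEM101. Among the tazemetostat-only regions of the members, the one near NAGS had the highest tag count in tazemetostat replicate 1.

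In the cytosol, ASS1 (chromosome 9, 130444961 to 130501274, plus strand) joins citrulline to aspartate. No peak reached its promoter; the closest lay at 0.76 kb inside the gene, where only tazemetostat replicate 1 had a peak (tag count 17.6, local fold 4.35). A tazemetostat-only region lay in an intron at 5.67 kb (130450406 to 130450859) with 28.2 and 18.1 and local folds of 4.6 and 4.1. Toward the end of the gene lay a pair of shared regions, neither of which passed the limma test. The first (130498810 to 130499551) had 35.5 and 39.1 in the controls against 55.4 and 42.5, both above the controls. The second (130499800 to 130500350) had 24.4 and 16.0 against 21.7 and 27.9, where the groups overlapped. ASL (chromosome 7, 66075800 to 66094697, plus strand) releases arginine and fumarate. Its promoter region (66075453 to 66076111) had 23.8 and 33.6 in the controls against 35.3 and 33.5 in treated cells, and control replicate 2 lay between the treated libraries.

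ARG1 (chromosome 6, 131470832 to 131584332, plus strand), the hepatic arginase, had 2 tazemetostat-only regions. The one at 2.73 kb (131575706 to 131576206) lies in an intron of ARG1 that also falls within MED23 and had tag counts of 10.6 and 10.5, about 21 and 28 tags. The one at -20.52 kb (131552505 to 131552914) had 10.1 and 9.79, about 20 and 26 tags. Between them and closest to the start, a peak at 1.09 kb was listed in tazemetostat replicate 2 alone, with 6.40. The shared region at -53.36 kb (131519627 to 131520101), in an intron of a longer transcript, had 16.9 and 10.9 in the controls and 10.6 and 12.8 under tazemetostat, and was 1 of 2 shared member regions with a lower mean under the drug. The centers of the tazemetostat-only regions nearest to the starts of ARG1 and ASS1 are shown along the plus strand of hg38, with capitals for a C/EBP match at ARG1 and an HNF4 match at ASS1.
ARG1 2.73 kb, chr6:131575807-131576106: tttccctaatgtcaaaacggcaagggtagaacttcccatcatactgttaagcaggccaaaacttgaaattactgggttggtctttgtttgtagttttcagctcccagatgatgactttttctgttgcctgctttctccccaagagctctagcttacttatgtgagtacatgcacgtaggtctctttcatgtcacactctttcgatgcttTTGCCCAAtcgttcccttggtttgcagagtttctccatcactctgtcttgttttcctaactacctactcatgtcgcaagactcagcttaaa
ASS1 5.67 kb, chr9:130450483-130450782: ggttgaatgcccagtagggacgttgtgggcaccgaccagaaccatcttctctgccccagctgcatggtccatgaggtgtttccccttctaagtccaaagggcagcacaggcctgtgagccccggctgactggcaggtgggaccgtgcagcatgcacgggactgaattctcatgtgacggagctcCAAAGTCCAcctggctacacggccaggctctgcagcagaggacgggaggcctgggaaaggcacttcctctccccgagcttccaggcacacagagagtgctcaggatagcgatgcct

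ARG2 (chromosome 14, 67619920 to 67651708, plus strand) encodes the arginase of mitochondria, found in many tissues outside the liver. Its promoter (67619455 to 67620268) was the only accessible region in its window and had no peak in control replicate 1. Tag counts were 10.1 in control replicate 2 and 27.2 and 38.8 under tazemetostat, with peak lengths of 394, 551 and 802 bp. The arginase genes thus differed in kind. ARG2 had a CpG-rich promoter with a peak in 3 libraries, and ARG1 had no promoter peak and tag counts of 6.40 to 16.9 elsewhere in its window.

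Of the carriers, SLC25A13 (chromosome 7, 96120220 to 96322147, minus strand), the aspartate-glutamate exchanger citrin, had 10 regions, the most of any member, of which 4 were shared and 3 tazemetostat-only. Its promoter region (96321808 to 96322662) had 33.7 and 33.2 in the controls and 52.9 and 34.6 under tazemetostat. An abutting region just inside the gene at 0.63 kb had 12.8 and 18.9 against 26.2 and 30.5. Shared intronic regions lay at 18.74 kb, with 33.7 and 23.1 against 52.9 and 39.2, and at 24.05 kb, with 11.6 and 14.3 against 21.7 and 19.2. Its 3 tazemetostat-only regions had tag counts from 6.02 to 12.4. SLC25A15 (chromosome 13, 40789412 to 40812460, plus strand) exchanges ornithine for citrulline. Its promoter (40789201 to 40789789) had 13.4 in control replicate 1, no peak in control replicate 2, and 26.2 and 20.7 under tazemetostat, with local folds between 4.01 and 4.95. A shared region at -2.87 kb had 11.6 and 14.3 against 20.2 and 24.5, and another at 12.30 kb had 20.9 and 19.3 against 33.8 and 32.0. Beyond the end of the gene, at 24.66 kb, a shared region had 9.31 and 7.98 against 9.57 and 6.40, and was the other shared region with a lower mean.

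GLS2 (chromosome 12, 56470944 to 56488414, minus strand) releases ammonia from glutamine. Its promoter region (56487611 to 56488777) had 17.5 and 36.6 in the controls and 43.8 and 36.9 under tazemetostat. The exonic region at 10.90 kb, which also falls within SPRYD4, had 8.73 and 21.0 against 26.2 and 16.6. In both regions the controls differed from each other by more than either treated library did from control replicate 2.

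**Figure D3:**
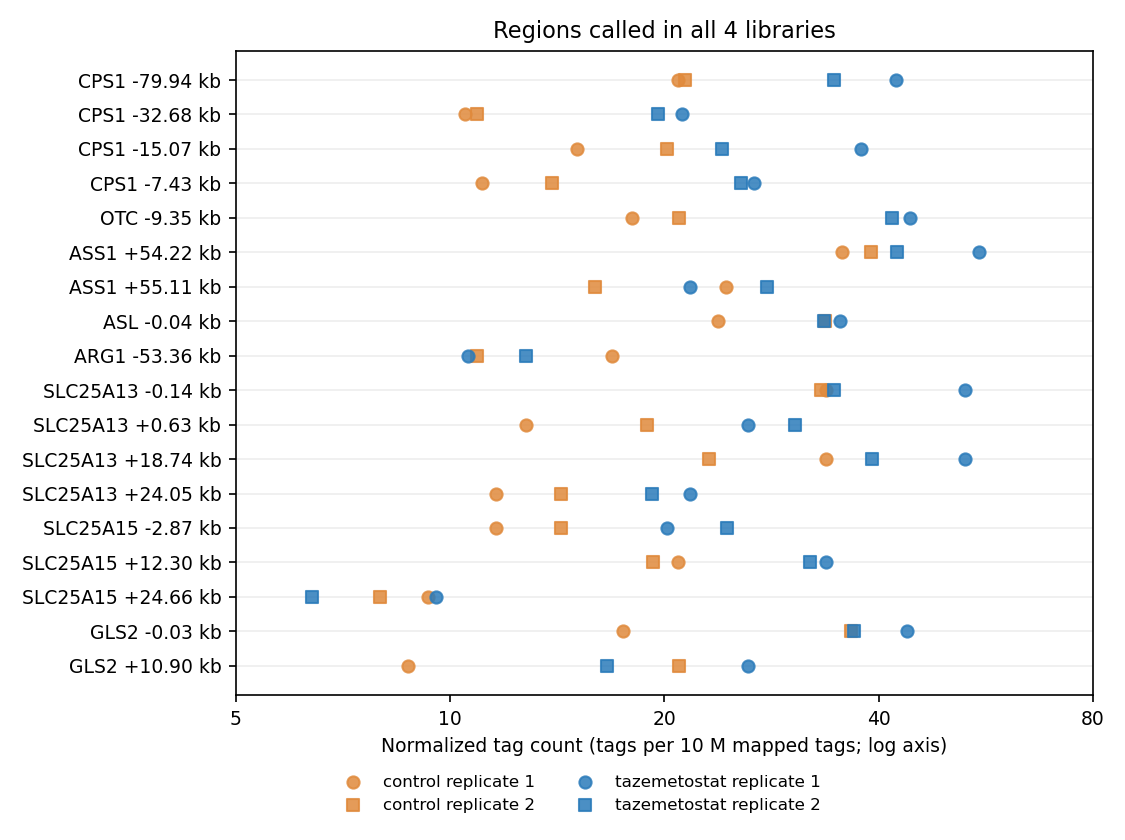
Normalized tag count (x axis, tags per 10 M mapped tags, logarithmic) in each library at the 18 shared regions, named by gene and distance from the canonical start. Orange symbols are controls and blue symbols tazemetostat; at OTC -9.35 kb the groups lie at 18.0 to 21.0 and 41.8 to 44.3, whereas at ASL they overlap.

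To determine whether these differences exceeded the spread between replicates, limma was fitted to log2(normalized tag count + 1) over all 15383 regions with exactly 1 peak in each library, on which changes of weak regions appear smaller than they are. All 18 shared member regions were among them. In 13, both tazemetostat values lay above both control values, as in 81.6% of the regions tested. At a Benjamini-Hochberg adjusted p under 0.05, 6 of the 18 were higher under tazemetostat, against 42.7% of all regions, and 0 were lower, against 0.247%. At an unadjusted p under 0.05 the counts were 10 and 0, against 8918 and 68 of all 15383 regions. The OTC region rose by 1.11 (SE 0.29, limma adjusted p = 0.0131). Among the CPS1 regions the rise was 1.02 at -7.43 kb (SE 0.30, limma adjusted p = 0.0172), 0.87 at -32.68 kb (SE 0.29, adjusted p = 0.0277) and 0.83 at -79.94 kb (SE 0.30, adjusted p = 0.0339). The other calls were SLC25A13 at 0.63 kb (0.82, SE 0.31, adjusted p = 0.0385) and SLC25A15 at -2.87 kb (0.74, SE 0.30, adjusted p = 0.0493). The promoters of ASL (0.27, SE 0.30, limma adjusted p = 0.418), SLC25A13 (0.35, SE 0.31, adjusted p = 0.315) and GLS2 (0.64, SE 0.33, adjusted p = 0.105) did not pass.

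The whole distribution of regions was shifted, with a median difference of 0.70 over all regions and 0.66 over the 18. Relative to that median, the OTC region was 0.41 higher and the CPS1 regions 0.06 to 0.32 higher, while the promoters of ASL and SLC25A13 were 0.43 and 0.35 lower. After each library was centered on its median, 0 of the 18 passed in either direction (limma adjusted p from 0.270 to 0.998). Over all regions 0 passed as well. The counts at an unadjusted p under 0.05 were 0 higher and 2 lower, against 468 and 1188 of all 15383 regions. Centering takes the same amount from every region. It left 5 differences above 0, at OTC (0.35), 3 CPS1 regions (0.07 to 0.26) and SLC25A13 at 0.63 kb (0.06), none of which passed. Per kb of peak, 7 of the 18 passed in limma as higher, against 5063 of all 15383 regions. Among the 7 were CPS1 at -7.43 kb (0.92, limma adjusted p = 0.00156) and at -15.07 kb (0.76, adjusted p = 0.00700). OTC (0.56, limma adjusted p = 0.0365) and the GLS2 promoter (0.60, adjusted p = 0.0272) were also among them. Without tazemetostat replicate 1 or without tazemetostat replicate 2, 0 of the 18 passed, as did 0 of all 15383 regions, so these smaller fits say nothing about single regions. The OTC difference was then 1.07 and 1.15, and that of CPS1 at -7.43 kb was 0.99 and 1.04. Without control replicate 1 or without control replicate 2, the OTC difference was 1.0 and 1.21. That of SLC25A13 at 18.74 kb was 0.95 and 0.42. Which of the 18 passed changed with the control left out, and these fits too rest on 1 control library.

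**Figure D4:**
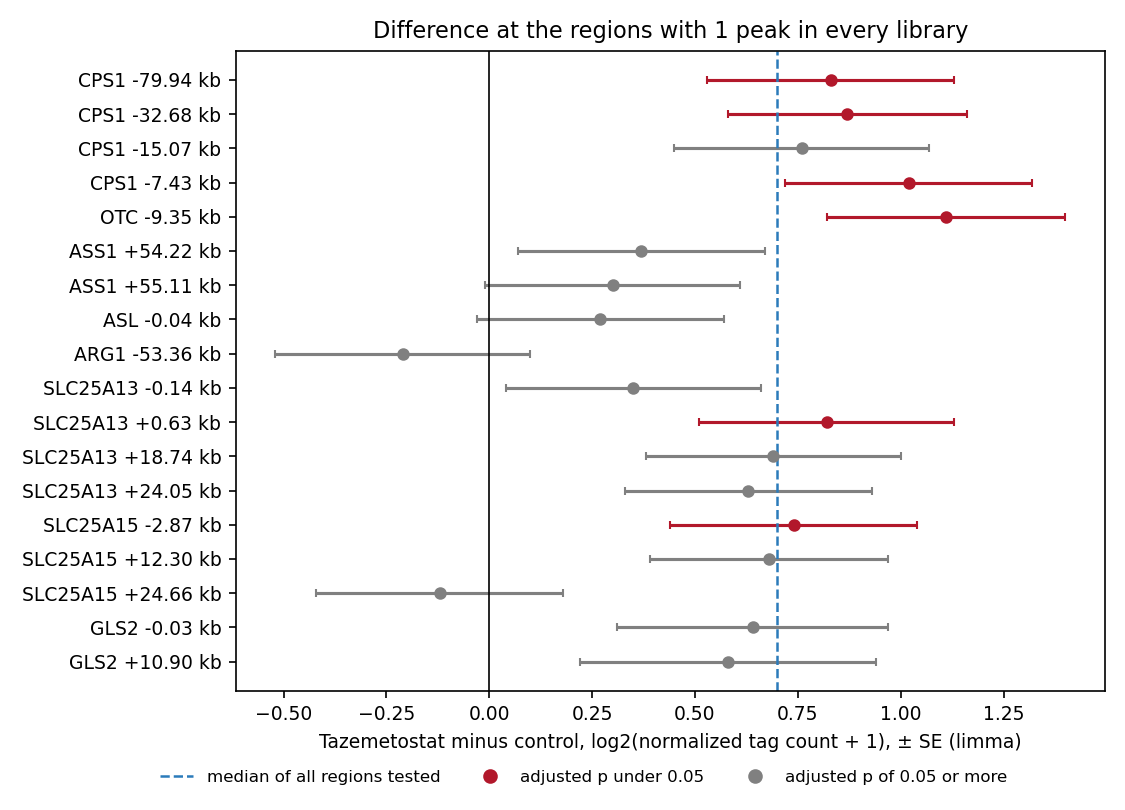
Difference between tazemetostat and control (x axis, log2 scale, limma, bars ± SE, n = 2 libraries a group) at the 18 shared regions. The dashed line is the median of all 15383 regions, 0.70; the 6 regions past the threshold lie from 0.74 to 1.11, at or above that line.

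Summed over the member windows, the normalized tag count was 376.8 and 424.4 in the controls and 840.6 and 764.9 under tazemetostat. The difference in means was 402.1, with SDs of 33.7 and 53.5 for 2 libraries a group (p = 0.33 by a two-sided exact permutation test, which can give no smaller value here). The windows held 22 and 24 peaks against 32 and 38, a difference of 12 with the same exact p. Both groups of libraries were separate in both measures. The difference in peaks was 2.5 with equal peak numbers per library, 3 with peaks of at least 8-fold, and 7 and 22.5 with windows of 2 and 50 kb. The difference in summed tag count was 133.4 with peaks of at least 8-fold and 707.8 with windows of 50 kb. The peaks covered 10730 bp on average in the controls and 17410 bp under tazemetostat, so the tag count per kb of peak differed less, at 37.55 ± 2.47 and 46.15 ± 4.60 (SD, n = 2 each). As a share of all peaks in a library, member peaks made up 0.0842 and 0.0690% in the controls and 0.0579 and 0.0702% under tazemetostat, which overlapped. By gene, the summed tag count was higher in both tazemetostat libraries than in both controls at 8 of 10 members, against 67.6% of coding genes. The exceptions were ASL, with 23.8 and 42.4 against 35.3 and 41.4, and GLS2, with 26.2 and 57.6 against 70.0 and 53.5.

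Peaks at member promoters stood out less from their surroundings than those elsewhere in the windows. Peaks were counted in each library, so the same region can enter several times. The 18 peaks at the members' own promoters came from ASL, SLC25A13, GLS2, ARG2 and SLC25A15 alone. These peaks had a median local fold of 5.38 and a median tag count of 33.5, and 1 of them (ARG2, tazemetostat replicate 1, 9.89) reached 8-fold. The 98 other peaks, which include those at promoters of neighboring genes, had a median fold of 7.44 and a median tag count of 15.6, and 47 reached 8-fold. Over all peaks on the primary chromosomes the split was by the canonical promoter of any coding gene. There, 23.0% of peaks at such promoters and 30.1% of the rest reached 8-fold. Tazemetostat-only peaks of the members had a median fold of 5.83 and a median tag count of 10.6, against 7.44 and 21.7 for shared ones. These classes are themselves defined by which libraries had a listed peak. The same medians over all regions were not computed, so this contrast cannot be read as particular to the members. When only peaks of at least 8-fold were kept, 0 members had a promoter peak in all 4 libraries, 3 had a shared region and 1 a tazemetostat-only region. The shares of coding genes under that filter were not computed, so these losses cannot be read as particular to the members.

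**Figure D5:**
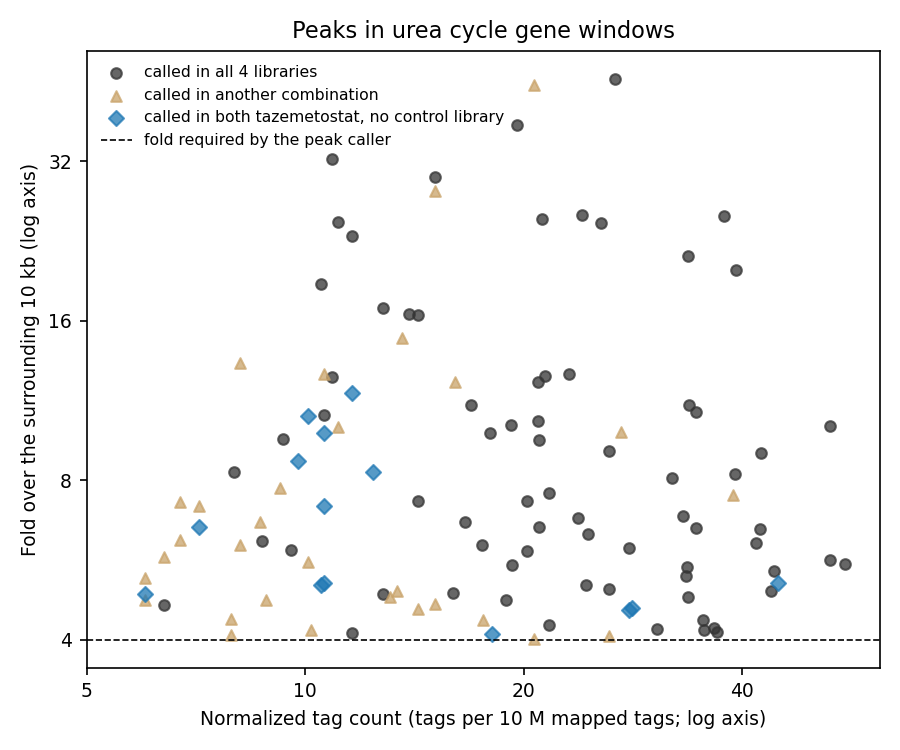
Fold over the surrounding 10 kb (y axis, logarithmic) against normalized tag count (x axis, logarithmic) for the 116 member peaks, by class of region. The dashed line is the 4-fold that the peak caller required, and the tazemetostat-only peaks lie between 4.1 and 11.71.

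To place the cycle in its pathway, 25 other genes of ammonia, glutamine, arginine and ornithine metabolism were read in the same way. Their promoters had a peak in all 4 libraries at 14 genes (30.5% of coding genes), in 1 to 3 libraries at 4 and in none at 7 (44.2%). A shared region lay in the window of 18 of the 25 genes (52.5% of coding genes), a tazemetostat-only region in 7 (32.5%) and a control-only region in 0 (1.35%). The 7 became 2 with equal peak numbers or an 8-fold filter and 19 with windows of 50 kb. It became 12 and 11 without control replicate 1 and 2, and 16 and 14 without tazemetostat replicate 1 and 2, where a peak in the remaining treated library was enough. Shares of coding genes were not computed under these settings, so these changes cannot be read as particular to the pathway. The tazemetostat-only region with the highest mean tag count lay in the window of PYCR1, which makes proline (42.8 and 44.4, local folds 4.74 and 4.27). SLC38A3, a glutamine transporter of liver, had a pair, with 38.3 and 37.3 at -3301 bp and 31.7 and 28.6 at 3692 bp from its start. The others named were GOT1, the cytosolic aspartate aminotransferase (8.06 and 16.6), RHCG, an ammonium transporter, at its promoter (12.1 and 9.03), AZIN2, an antizyme inhibitor (10.1 and 10.9 in the higher of a pair), and NOS3, the endothelial nitric oxide synthase (9.07 and 11.3). SLC25A2, a carrier related to SLC25A15, had no peak in its window in any library.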

How the data were processed

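Accessibility was measured by ATAC-seq in 4 HepG2 libraries, grouped by sample title. Per the labels and methods, the authors used Trim Galore 0.6.6 for trimming, Bowtie2 2.3.5.1 for alignment (hg38) and HOMER 4.11.1 for peaks, 1 library at a time. A false discovery rate of 0.001 and stitching of peaks of 300 bp into longer ones are stated in the deposited headers. The deposited signal is the normalized tag count per 10 M mapped tags, and the deposited ratio is the fold over the local 10 kb. The deposited p-value, score and clonal ratio were not used. Depth was 17.2 to 26.6 M mapped tags, and precision is limited further by n = 2.

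Peaks overlapping by at least 1 bp were joined into 80551 regions and assigned to GENCODE release 44 windows of the gene body plus 10 kb. The files' coordinates are given as listed. limma 3.58.1 (R 4.3.3) was run on log2(signal + 1) over 15383 regions without a block; library totals were compared by exact permutation. Named genes are the 10 members, pathway genes with a region called in only 1 group (at most 6) or with no peak, and neighbors whose gene or promoter holds a member's peak. Members, lists and tests were chosen with earlier results of these data known. The joining, motif and limma steps were tested on simulated data. Alternatives were equal peak numbers, an 8-fold local filter, other windows, overlap and scaling rules, a replicate block and omission of each library.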

Additional observations from a re-analysis of the deposited data

How the results depend on the processing

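Keeping only peaks of at least 8-fold over local background left 3 members with a shared region, 1 with a tazemetostat-only region and 0 with a promoter peak in all 4 libraries. The shares of coding genes under this filter were not computed. Of the 4 member regions then tested, limma called 3 as higher, against 1366 of 2423 over all regions. Among the 3 was SLC25A13 at 18.74 kb, which was not among the 6 calls with all peaks. The filter left 4 members without a control peak and 2 pathway genes with a tazemetostat-only region. With equal peak numbers per library, a tazemetostat-only region was found at 2 members and 2 pathway genes. With windows of 2 kb and 50 kb, 2 and 0 members had no control peak, and at 50 kb 19 pathway genes had a tazemetostat-only region. Omitting each library gave 1 to 2 members without a control peak (2 without control replicate 2) and 11 to 16 pathway genes with a tazemetostat-only region. Shares of coding genes were not computed under these omissions. The member regions then had 0 to 10 limma calls (0 over all regions without either tazemetostat library). Calls over all regions also rose or fell with the control left out, so this range cannot be read as particular to the members. Each of these fits rests on 1 library in a group. Median centering gave 0 calls. The replicate block gave 3 (5046 over all regions, against 6569 without it). Over regions, deviations of same-numbered libraries from their group means were not correlated (correlation -0.00246). Such a correlation leaves out any shift of a whole library, so it cannot show that the libraries were unpaired. Both libraries numbered 1 had fewer mapped tags (17.2 and 19.8 M) than both numbered 2 (23.8 and 26.6 M).

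Centering subtracts the same amount from every region, so the smaller differences turned negative: GLS2 (-0.18 at 10.90 kb, -0.12 at the promoter), SLC25A15 (-0.02 at -2.87 kb, -0.08 at 12.30 kb), CPS1 at -15.07 kb (-0.0038), ASL (-0.49), SLC25A13 (-0.14 at 24.05 kb, -0.07 at 18.74 kb, -0.41 at the promoter) and ASS1 (-0.39 and -0.46). Per kb, signs reversed at ARG1 (0.11), SLC25A13 at 24.05 kb (-0.05) and the second ASS1 region (-0.11). Omitting each library ranged from -0.0079 to 1.17 at GLS2 10.90 kb, from -0.38 to 0.14 at SLC25A15 24.66 kb and from -0.50 to 0.09 at ARG1. The causes of these last reversals were not tested. Summing several peaks of a library, chosen after seeing the data, gave 5 calls. Count-based tests were not run, because the normalized signal did not pass a check for whole reads. The tag numbers given above are therefore approximate.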
